A study of Gallus gallus with 12 samples.

Results

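Genes that span 200 kb or more of the chicken genome were followed across the 4 groups of an embryonic heating study. The rule took protein-coding rows of the gene count table whose end minus start was at least 200 kb on chromosomes 1 to 28 or Z. It left out ion channel, receptor, cadherin, axon guidance, collagen, RBM and TRP families by the first letters of the symbol, which removed 55 further long genes. It kept 374 genes of 30742 rows, or 2.2% of the 17007 protein-coding rows. No expression value entered the rule.

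The RNA came from White Leghorn embryos at embryonic day 18, and no other genotype was used. The control (CT) incubation ran at 37.8 °C. Embryonic thermal manipulation (ETM) eggs were held at 39.5 °C from embryonic day 13 until sampling. Hypothalamus and whole brain were taken from both, which gives 4 groups of 3 libraries, all with 1 batch label. The relative humidity is given as 65% in one place of the labels and as 60% in another, and the labels do not say how many embryos a library holds or how the replicates were raised. P-values therefore measure the spread between these libraries.

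Long genes consist almost wholly of introns. RNA polymerase II needs a long time to cross one, so their output depends on elongation, on topoisomerases that relax the DNA, and on splicing that recognises exons across wide introns. In vertebrates many of the longest genes serve neurons: synaptic adhesion proteins, active zone scaffolds and their regulators are over-represented among them. Several coincide with common fragile sites, where transcription and replication of a wide locus collide.

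The median span was 286.5 kb, against 14.0 kb for the other protein-coding genes, while the median exonic length was 5642 bases against 3207. Exons therefore made up a median of 1.86% of a long gene and 23.5% of another. Spans ran from 200.2 to 1164 kb. LRRTM4 (200153 bases) lay just inside the limit and TBL1X (199874 bases) just outside it. The 3 genes over 1000 kb were DMD, which encodes dystrophin, CSMD1, a complement-control membrane protein, and ENSGALG00010009702, which has no symbol in the table. Of the 374 genes, 301 lay on chromosomes 1 to 10, 47 on chromosomes 11 to 28 and 26 on Z.

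The spans rest on 1 annotation of GRCg7b. Of the 341 genes with an overlapping RefSeq gene of the same symbol, 303 also reached 200 kb there, 38 did not and 14 were under 100 kb. CHST2, for example, spans 219 kb in the table and 3 kb in RefSeq. Another row overlapped 135 of the genes, on the opposite strand for 83 of them. These overlaps were judged on whole spans, introns included, and overlap of exons was not counted. Whether strand was used in counting is not given in the sources used here. Where exons on opposite strands overlap, their reads cannot be told apart without it. 25 genes had no symbol, and 1 symbol on chromosome 4 appeared as a date.

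All but 6 of the long genes had a count in every library, and 3 had none in any. After the filter on low counts, 365 were tested in hypothalamus and 367 in the other comparisons. Levels are CPM, counts scaled to a common library size with edgeR's trimmed mean of M values (TMM). Per kilobase of exon, the median long gene stood at 7.28 CPM and the median of the other protein-coding genes at 5.12 CPM. On that per-length scale the highest was APP, the amyloid precursor protein, at 537 CPM per kb. SYT1, the calcium sensor of vesicle release, followed at 154, the adhesion protein CNTN1 at 129 and the adhesion protein OPCML at 112. All of these stood far above the median of their class.

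The libraries held 13309467 to 18317019 counts. Long genes took 2.84 to 3.01% of the counts in CT hypothalamus and 2.68 to 2.81% in ETM hypothalamus. In whole brain they took 3.11 to 3.26% in CT and 3.50 to 3.64% in ETM. The 2 treatment groups did not overlap in either tissue, and they differed in opposite directions. Mitochondrial genes took 6.17 to 6.29% of the counts in CT whole brain and 7.09 to 8.62% in ETM whole brain. Their part in the results was not tested. W-linked genes, present only in female birds, took 0.113 to 0.147% of the counts in CT hypothalamus 3, ETM hypothalamus 2 and ETM whole brain 1, and 0.0105 to 0.0174% in the other 9 libraries. By this measure 1 of 3 ETM and none of 3 CT whole brain libraries stood high.

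The libraries labelled hypothalamus gave mixed marker values. Of 15 hypothalamic markers tested in controls, 4 were higher and 8 lower in them than in whole brain. NKX2-1, a defining hypothalamic transcription factor, was at 0 to 1.24 CPM in them and at 4.86 to 6.53 CPM in whole brain. SIX3, OTP and SIM1 leaned the other way, with 31.4 to 82.7, 6.20 to 43.1 and 1.89 to 4.36 CPM against 20 to 34.2, 2.14 to 6.10 and 0.915 to 1.17 CPM. The pallial marker TBR1 was at or near 0 there, and 121 to 179 CPM in whole brain. The summed 18 midbrain and hindbrain markers reached 688 to 907 CPM in CT and 177 to 589 CPM in ETM hypothalamus-labelled libraries, against 116 to 160 CPM in whole brain. In CT, SLC6A4 (286 to 434 CPM) and TPH2 (138 to 232 CPM) gave much of this sum. Of the 14 tested in controls, 11 were higher than in whole brain and 2 lower. BARHL1 and GABRA6 were at 22 to 44.1 and 9.21 to 22.1 CPM in whole brain. They were at 4.8 to 13.6 and 0.0814 to 0.551 CPM in hypothalamus-labelled libraries. Summed myelin markers reached 11260 to 22700 CPM in CT and 18670 to 30200 CPM in ETM there, and 3609 to 5796 CPM in whole brain. These libraries are called hypothalamus-labelled below. In addition, the deposited counts and FPKM values of ETM hypothalamus library 1 disagreed. Only 0.284% of its genes matched within 0.1%, against 100% in every other library.

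The first comparison asked how heat from embryonic day 13 changed long genes in whole brain. More long genes rose than fell: 112 of 367 were higher in ETM and 37 were lower (edgeR quasi-likelihood test, Benjamini-Hochberg adjusted p below 0.05 over all genes). Among all 15305 genes tested, 44.3% were called, 21.1% higher and 23.2% lower. The members stood at 30.5% higher and 10.1% lower. Their median log2 fold change was 0.11, beside 0.01 over all genes. Read library by library, 149 long genes had all ETM values above all CT values and 43 had them below, where the background shares were 30.5% and 26%.

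The lean towards higher values was shared with genes of middle length. Protein-coding genes of 50 to 200 kb were 31.2% higher and 12.9% lower, with a median of 0.16. Genes under 10 kb went the other way, with 10.3% higher, 40.1% lower and a median of -0.30. The 55 long genes removed by name gave 18 higher and 5 lower of the 54 tested. Span above 50 kb thus brought no further rise in the median, which was 0.17 at 50 to 100 kb and 0.11 at 400 kb and over.

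Each of the 3 ETM whole brain libraries showed the same slope. For genes under 5 kb their medians lay 0.30 to 0.39 below the CT mean on the log2 scale, and for genes of 200 to 400 kb 0.12 to 0.21 above it. The CT libraries stayed within -0.03 to 0.02 of their own mean in that long class. Exonic length did not order the long genes: the median was 0.10 with under 4 kb of exon, 0.12 with 4 to 6 kb and 0.11 above. When a per-library trend on gene span was removed, 71 were higher and 68 lower, and the median became -0.03. That trend was fitted on these same data, long genes included. A long-gene median near 0 is therefore largely built in, here and in each later use of it.

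**Figure D1:**
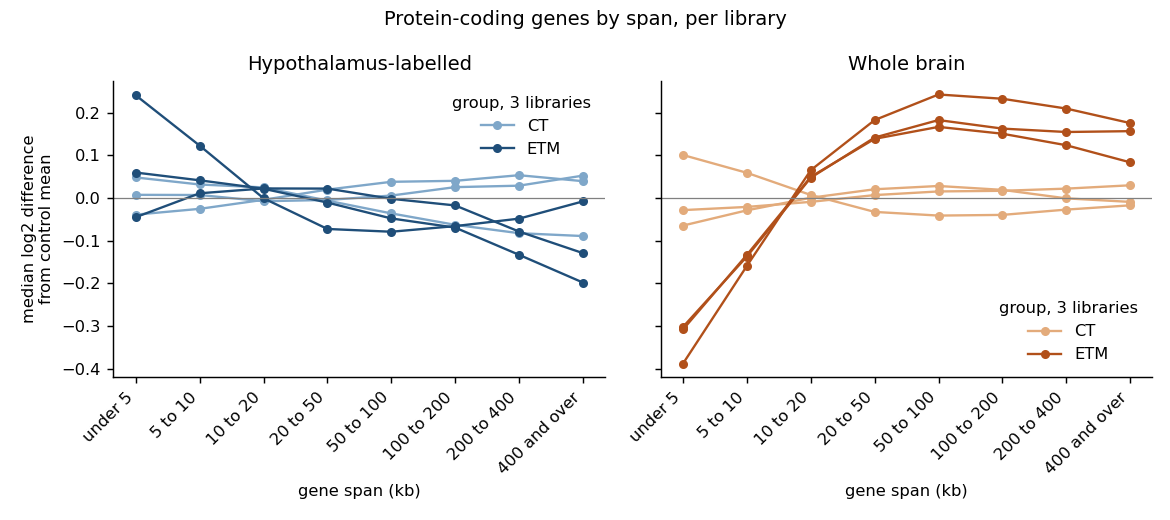
Median log2 difference of protein-coding genes from the mean of the CT libraries of the same tissue (vertical axis) by gene span in kb (horizontal axis), 1 line per library, left hypothalamus-labelled and right whole brain. The 3 ETM whole brain libraries run from -0.30 or below at under 5 kb to between 0.12 and 0.21 at 200 to 400 kb. At left, ETM libraries 1 and 2 lie above the CT mean at under 5 kb and below it at 200 to 400 kb. ETM library 3 lies below it in both classes. The hypothalamus-labelled ETM and CT libraries overlap in part.

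Chromosome class went with direction. On chromosomes 1 to 10, 101 long genes were higher and 21 lower of 296 tested. On the smaller chromosomes 11 to 28 it was 5 higher and 15 lower of 47, and on Z 6 higher and 1 lower of 24. Those are 34.1% and 7.09%, 10.6% and 31.9%, and 25% and 4.17% of the long genes tested. The other protein-coding genes were 28.5% higher and 16.5% lower on chromosomes 1 to 10, 12.6% and 39% on chromosomes 11 to 28, and 17.2% and 13.3% on Z. With a covariate for W-linked counts, 96 long genes were higher and 33 lower. Apart from DESeq2, the share of all genes called under a changed fit or without a library is not given in these results. Changes in such counts therefore cannot be called particular to long genes. Split by level per length into 3 bins of like size, the long genes had 26 higher and 7 lower in the lowest bin, 42 and 17 in the middle one, and 44 and 13 in the highest. Genes with no overlapping row gave 82 higher and 19 lower of 236, and those with one 30 and 18 of 131.

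The list counts that follow stand beside shares of 30.5% higher and 10.1% lower for all long genes. For all genes tested the shares were 21.1% and 23.2%. Most long genes on the presynaptic list rose. Of 12 long genes of the active zone and of vesicle release, 8 were higher and none was lower, with a median log2 change of 0.35. ERC2, an active zone scaffold spanning 424 kb of chromosome 12 (8111156 to 8535466, minus strand), read 53.3, 46.3 and 54.4 CPM in CT and 98.1, 99.6 and 94.1 CPM in ETM. Every ETM library lay above every CT library, and the log2 fold change was 0.88 ± 0.09 (SE, adjusted p = 9.8e-05). SYT1 rose from 771 to 854 CPM in CT to 1027 to 1247 CPM in ETM, a log2 change of 0.48 ± 0.09 (adjusted p = 0.0013).

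Others of the presynaptic group were CADPS2, a priming factor of dense-core vesicles (0.62 ± 0.08), and PCLO, the giant scaffold piccolo (0.47 ± 0.09). The release scaffolds RIMS1 and RIMS2 changed by 0.35 ± 0.08 and 0.34 ± 0.08. The exceptions did not pass. NRXN3 stood at 195 ± 2.78 CPM in CT and 198 ± 9.41 CPM in ETM (SD, n = 3), and UNC13B, a priming factor on Z, had a log2 change of -0.29 ± 0.11.

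**Figure D2:**
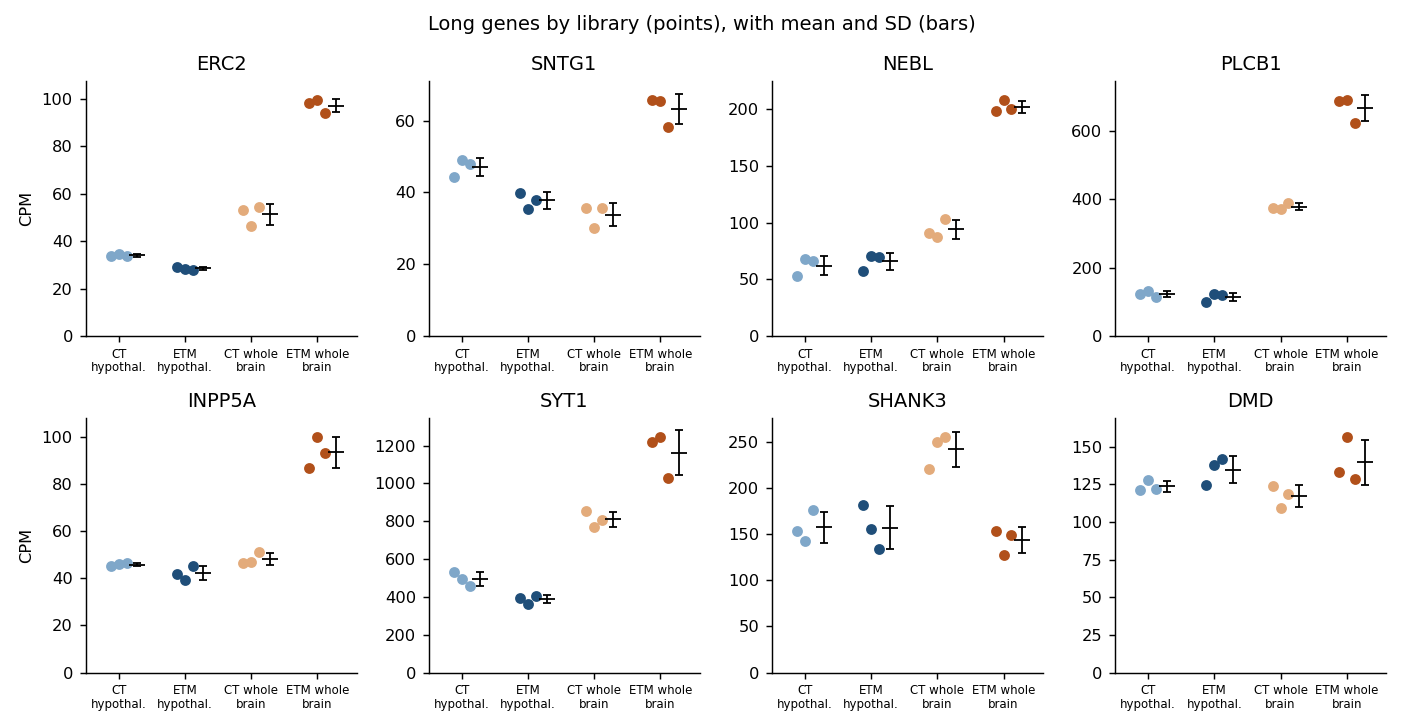
CPM in each library (points) for 8 long genes in the 4 groups, with the group mean and SD as bars, n = 3. ERC2, SNTG1, NEBL, PLCB1, INPP5A and SYT1 are higher in all 3 ETM whole brain libraries than in any CT whole brain library, SHANK3 is lower in all 3, and DMD did not pass the test.

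On the postsynaptic side 6 of 17 long genes were higher and 1 was lower. SNTG1, a neuronal syntrophin that spans 342 kb of chromosome 2 (108439440 to 108781058, plus strand), read 35.7, 30.0 and 35.5 CPM in CT and 65.8, 65.4 and 58.3 CPM in ETM. The groups did not overlap (log2 change 0.86 ± 0.10, adjusted p = 0.00016). DLGAP2 (0.51 ± 0.13) and DLG2 (0.31 ± 0.09), both scaffolds of the postsynaptic density, were also higher. SHANK3, a master scaffold of excitatory synapses, went the other way: 220, 250 and 256 CPM in CT against 153, 127 and 149 CPM in ETM. It was the largest called fall among long genes with a symbol and at least 1 CPM (log2 change -0.80 ± 0.10, adjusted p = 0.0002), and 4 other rows overlap its locus.

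Of 18 long genes of second messenger and kinase signalling, 10 were higher, none was lower and the median was 0.37. PLCB1, a phospholipase C that receptors activate through Gq, read 374, 371 and 389 CPM in CT and 686, 690 and 622 CPM in ETM (0.77 ± 0.07, adjusted p = 8.8e-05). INPP5A, the phosphatase that inactivates inositol trisphosphate, rose from 46.6, 46.9 and 51.1 CPM to 86.9, 100 and 93.3 CPM (0.91 ± 0.08). In both genes the treated libraries lay well clear of the controls.

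PLCB4 changed by 0.92 ± 0.11 and DGKB, a kinase of the PLC product diacylglycerol, by 1.01 ± 0.13. PDE1A and ADCY2, which break down and make cyclic nucleotides, changed by 0.54 and 0.38 on the log2 scale. RYR2, a calcium release channel, changed by 0.42. PDE10A, PDE3A and ITPR2 were among the 8 that did not pass.

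RNA-binding proteins that act in neurons followed the same direction, with 4 of 5 higher. They were CELF2 (0.59 ± 0.08), CELF4 (0.51 ± 0.08), RBFOX1 (0.44 ± 0.08) and KHDRBS2 (0.37 ± 0.11), all regulators of splicing or transcript stability. RBFOX1, 748 kb wide, stood at 160 ± 3.24 CPM in CT and 224 ± 18.5 CPM in ETM. The fifth, ADARB2, had a log2 change of -0.12 ± 0.08.

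Adhesion molecules did not move one way. Of 31, 7 were higher and 8 lower, with a median of -0.04. The higher ones included CADM2 (0.64 ± 0.08), the synapse organiser NLGN1 (0.59 ± 0.09), LRRC4C (0.57 ± 0.08) and NCAM2 (0.66 ± 0.12). KIRREL3 (-0.61 ± 0.09), ASTN2 (-0.58 ± 0.11), OPCML (-0.48 ± 0.11) and the teneurin TENM4 (-0.47) were among the lower ones. OPCML was 578, 833 and 664 CPM in CT and 505, 502 and 528 CPM in ETM, so its groups lay side by side without overlap.

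Receptor tyrosine phosphatases and kinases had no higher gene and 2 lower of 10. PTPRF was 190, 196 and 211 CPM in CT and 148, 136 and 149 CPM in ETM (-0.50 ± 0.08, adjusted p = 0.0007), and PTPRG changed by -0.26 ± 0.09. ERBB4, NTRK2, EGFR and ALK did not pass. Among 37 transcription factors 10 were higher and 2 lower. ZNF385D (0.88 ± 0.11) and the orphan receptors ESRRG (0.56 ± 0.09) and RORA (0.52 ± 0.15) were higher. PRDM16 (-0.58 ± 0.10), which is found in neural progenitors in mouse, and CUX1 (-0.36 ± 0.09) were lower.

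**Figure D3:**
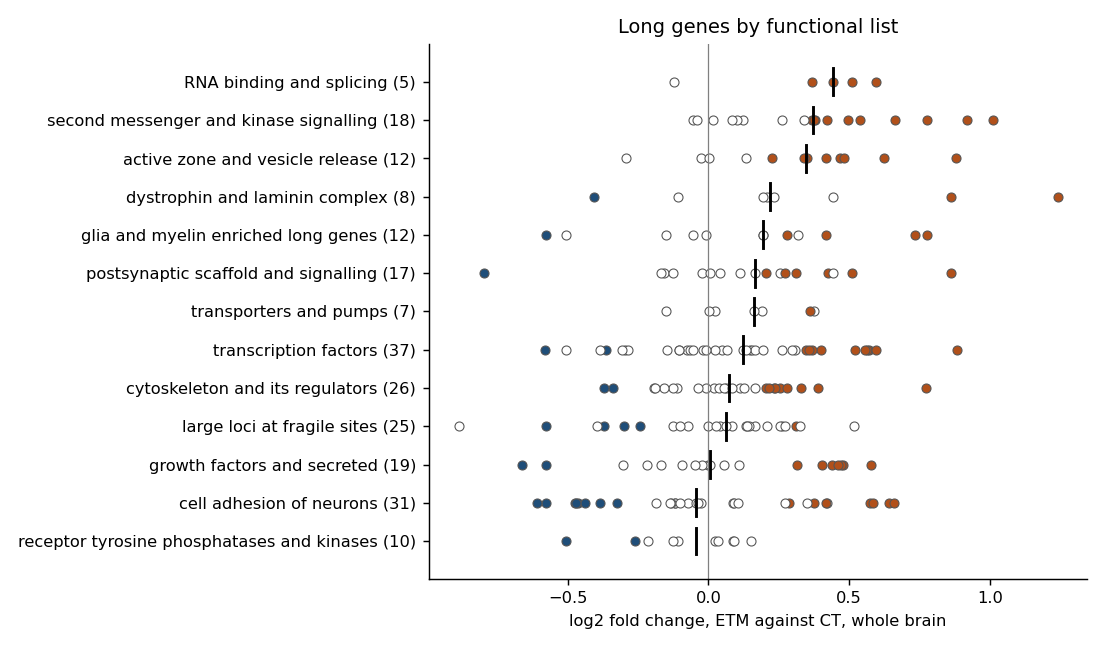
Log2 fold change of ETM against CT in whole brain (horizontal axis) for the long genes of 13 functional lists, with the number tested in brackets. Filled points passed the test (brown higher, blue lower), open points did not, and black bars are list medians, from 0.44 for RNA binding to -0.04 for cell adhesion and for receptor tyrosine phosphatases and kinases.

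The dystrophin-associated genes were mixed, with 2 higher and 1 lower of 8. DMD itself, the widest gene at 1164 kb, read 124, 109 and 118 CPM in CT and 133, 157 and 129 CPM in ETM. Its values did not overlap, yet the log2 change of 0.21 ± 0.09 did not pass (adjusted p = 0.086). SGCZ, a sarcoglycan, had the largest called rise among long genes with a symbol and at least 1 CPM, at 1.24 ± 0.21, from a low level of 3.65 ± 0.57 CPM to 8.89 ± 1.66 CPM. LAMA2, a laminin chain, fell by 0.41 ± 0.13, and UTRN, the homologue of dystrophin, had a log2 change of 0.20 ± 0.11 that did not pass.

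Genes of the cytoskeleton and its regulators had 8 higher and 2 lower of 26, near the shares of all long genes (30.5% and 10.1%). ANK3, the ankyrin of the axon initial segment, stood at 425 ± 7.66 CPM in CT and 550 ± 5.49 CPM in ETM (0.33 ± 0.07), and ARHGAP15 changed by 0.77 ± 0.20. KIF26B and PARD3B were lower by 0.34 and 0.37 on the log2 scale. Secreted proteins had 7 higher, among them the proteoglycans SPOCK1 (0.44 ± 0.07) and SPOCK3 (0.46 ± 0.07), and 2 lower, XYLT1 (-0.58 ± 0.11) and ADAMTSL1 (-0.66 ± 0.17). Of 25 large loci at fragile sites, 2 were higher and 4 lower. LSAMP, CSMD1 and CNTNAP2, which are 904 to 1031 kb wide, did not pass, with log2 changes of -0.07, 0.16 and 0.09.

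The remaining lists were small: 1 of 7 transporters and pumps, the sodium leak channel NALCN, was higher and none lower. Of 12 long genes enriched in glia 4 were higher and 1 lower, and NKAIN2 led them (0.73 ± 0.08). Long genes outside any list also appeared among the largest changes. NEBL, an actin-binding protein of the nebulin family, read 91.1, 87.6 and 103 CPM in CT and 198, 208 and 201 CPM in ETM, with a log2 change of 1.06 ± 0.08 (adjusted p = 5.1e-05). The treated values were all nearly equal and stood clear of the controls.

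PLPPR5, a neuronal membrane protein, changed by 1.02 ± 0.11, and CCDC91 by 1.19 ± 0.17. SPATA17 and TTN (titin) both changed by 1.11, at levels of 8.24 and 2.73 CPM in ETM. Among the falls outside the lists were DNAH9, a heavy chain of axonemal dynein in motile cilia (59.0 ± 5.79 to 38.1 ± 2.77 CPM), and IRS1, the adaptor of the insulin receptor (36.3 ± 1.86 to 25.8 ± 1.53 CPM). CHST2 fell by 0.51 ± 0.10 and FBXL7 by 0.51 ± 0.13. The gene without symbol that spans 1125 kb read 1.75, 1.71 and 2.10 CPM in CT and 0.854, 0.728 and 1.12 CPM in ETM (-1.07 ± 0.32, adjusted p = 0.019). TTN did not pass with limma on log2(FPKM + 1), at 0.02, or on log2(FPKM + 0.1), at 0.16. An amount added to low FPKM values shrinks the fold change, so these 2 fits cannot decide the call. Without CT library 2 TTN did not pass in edgeR either, at 0.92. Some calls near the threshold did not hold when any 1 of several libraries was left out. DLG2 did not pass without ETM library 1 or 2, PARD3B without CT library 1 or 3 or ETM library 3, and the 1125 kb gene without CT library 3 or ETM library 1 or 2. LAMA2 and NALCN did not pass without CT library 2 or 3 or ETM library 1 or 2, and PTPRG without CT library 1 or any ETM library. The edgeR adjusted p-values were then 0.0504 to 0.111. With the covariate for W-linked counts DLG2, the 1125 kb gene, LAMA2, NALCN and PTPRG did not pass either (0.051 to 0.062).

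Markers of other cells moved with these changes. In whole brain 6 of 10 myelin markers, 5 of 7 oligodendrocyte precursor markers and 4 of 8 red blood cell markers were lower in ETM and none was higher. Over all genes tested 23.2% were lower and 21.1% higher. The marker sums were 3609 to 5796 against 3650 to 4872 CPM for myelin, 806 to 958 against 586 to 709 CPM for precursors and 616 to 870 against 268 to 566 CPM for red blood cells (CT first). Of 14 neuron markers 7 were higher and 4 lower, and their sum was 10530 to 11000 CPM in CT and 10790 to 11880 CPM in ETM. Of 10 astrocyte markers 1 was higher and 3 lower, of 9 microglia markers 2 and 3, and of 11 endothelial markers 1 and 4. Their sums in CT were 6310 to 6663, 67.0 to 70.9 and 259 to 285 CPM. In ETM they were 5433 to 6131, 50.8 to 58.3 and 235 to 273 CPM. The summed choroid plexus markers were 787 to 1217 CPM in CT and 1241 to 1809 CPM in ETM, and the pallial ones 1106 to 1287 and 1616 to 1732 CPM. The first sum was mostly TTR, at 686 to 1100 CPM in CT and 1120 to 1690 CPM in ETM. SLC17A6 was the highest gene of the second, at 379 to 401 and 635 to 808 CPM. Gene by gene, 2 of 8 choroid plexus markers were higher and 1 lower (median log2 change -0.19). Of 12 pallial markers 3 were higher and 2 lower (median 0.08). The part of these shifts in the long-gene changes was not tested. In bulk tissue, fewer cells of a type and less RNA per cell cannot be told apart.

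The machinery that transcribes long genes, itself mostly made of shorter genes, was looked at beside them. Of 41 such genes, of which CDC73 is a long gene too, 14 were higher and 13 lower in ETM whole brain. The shares over all genes were 21.1% and 23.2%. TOP1, a topoisomerase that long neuronal genes depend on in mouse, read 128, 119 and 129 CPM in CT and 189, 186 and 175 CPM in ETM (0.51 ± 0.08), and TOP2B changed by 0.33 ± 0.09. POLR2A, the largest subunit of RNA polymerase II, read 278, 389 and 312 CPM in CT and 196, 155 and 163 CPM in ETM (-0.97 ± 0.13). Elongation factors went both ways. SUPT5H (-0.90 ± 0.10), SUPT4H1 (-0.88 ± 0.10) and CDK9 (-0.69 ± 0.10) were lower. TCEA1 (0.74 ± 0.11), CCNT2, a cyclin partner of CDK9 (0.68 ± 0.09), and RTF1 (0.55 ± 0.07) were higher, while CCNT1, the other such partner, was lower (-0.60 ± 0.14). Of the PAF1 complex, CDC73 (0.42), LEO1 (0.42) and CTR9 (0.24) were higher and PAF1 (-0.35) lower.

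In hypothalamus-labelled tissue no long gene passed the adjusted threshold in edgeR, in either direction, of 365 tested. Only 7 of 15405 genes passed there in all, a background of 0.0454%, with 0.0389% higher and 0.00649% lower. At an unadjusted p below 0.05, 7 long genes were higher and 42 lower, where the background was 10.3% of genes, 5.71% higher and 4.63% lower. DESeq2 called 4 long genes, all lower (MYO16, CNTNAP2, GALNTL6 and SCUBE1), against a background of 1.27% of genes, 0.824% higher and 0.441% lower. The median log2 change was -0.09, beside 0.01 over all genes.

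Library by library, 68 long genes had every ETM value below every CT value and 12 had them above. The background shares for these patterns were 7.75% and 8.39%. Genes under 10 kb had a median of 0.07 and genes of 50 to 200 kb one of -0.04, so the slope with span ran opposite to that in whole brain and was shallower. The 3 ETM libraries differed among themselves: at 400 kb and over their medians lay 0.01, 0.20 and 0.13 below the CT mean, and CT library 1 lay 0.09 below it. For genes under 5 kb ETM libraries 1, 2 and 3 stood at 0.24, 0.06 and -0.04 from that mean, and CT library 1 at 0.05. ETM library 1, the highest there, is the one whose counts and FPKM values disagreed. With the span trend removed the median of long genes was 0.01.

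The lowest p belonged to MYO16, an unconventional myosin, at 56.3, 54.4 and 55.6 CPM in CT and 43.0, 33.7 and 36.8 CPM in ETM. The groups did not overlap, but the log2 change of -0.56 ± 0.13 had an adjusted p of 0.20. SCUBE1, a secreted and membrane-bound protein, read 19.9, 20.5 and 25.6 CPM in CT and 15.5, 9.21 and 11.02 CPM in ETM (-0.89 ± 0.21, adjusted p = 0.20). CNTNAP2, an adhesion protein of the axon that spans 904 kb, read 56.8, 78.7 and 75.7 CPM in CT and 53.8, 37.2 and 34.97 CPM in ETM (-0.75 ± 0.19, adjusted p = 0.22).

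GALNTL6, CDK14, CSMD1, NCAM2, MYCBP2, NBEA and ATP8A2 completed the 10 lowest p-values, with log2 changes from -0.79 to -0.38. All 10 were thus lower in ETM, and none passed in edgeR. ERC2 stood at 34.0 ± 0.59 CPM in CT and 28.5 ± 0.83 CPM in ETM, and SNTG1 at 47.1 ± 2.44 and 37.7 ± 2.27 CPM. Both were lower in all ETM libraries, with adjusted p-values of 0.48 and 0.38.

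By list, the median log2 change was -0.31 for the 12 active zone genes, -0.16 for the 17 postsynaptic genes and -0.24 for the 7 transporters and pumps. It was 0.01 for the 19 secreted proteins and -0.02 for the 25 fragile-site loci. None of their genes passed. Summed midbrain and hindbrain markers were lower in all 3 ETM libraries than in any CT library, as given above. None of the 13 tested passed, and their median log2 change was -0.06. The sum was highest in SLC6A4 (286 to 434 CPM in CT, 6.97 to 171 CPM in ETM) and TPH2 (138 to 232 and 4.29 to 81.1 CPM). EN1, EN2, PAX2 and GATA3 overlapped between the treatments. Myelin markers had a median log2 change of 0.35, hypothalamic ones -0.52, red blood cell ones -0.65 and endothelial ones -0.28, and none of these passed. Summed red blood cell markers were 428 to 688 CPM in CT and 297 to 431 CPM in ETM, and endothelial ones 433 to 509 and 363 to 418 CPM. Their part in the long-gene values was not tested.

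The heat effects were set against each other in 1 fit of all 12 libraries, as the log2 change in hypothalamus-labelled tissue minus that in whole brain. For 102 of 367 long genes the difference was negative and for 15 it was positive (edgeR, adjusted p below 0.05). Over all 16201 genes tested, 24.2% were called, 12.3% negative and 11.9% positive. The members stood at 27.8% and 4.09%, with a median difference of -0.28 beside -0.03. With the span trend removed, 45 were negative and 40 positive, and the median was -0.02. Limma gave 63 negative and 4 positive on log2(FPKM + 0.1) and 5 positive on log2(FPKM + 1), and a replicate block gave 9 positive. The shares of all genes called in these changed fits are not given here. Of the 102, 91 had a positive whole brain value and a negative hypothalamus value, and 79 were called higher in whole brain. Of the 15, 14 were called lower in whole brain. Both sets were picked by this difference in the same libraries, which favours such patterns. The patterns were not counted over all genes called.

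Genes of 50 to 200 kb were 22.9% negative and 4.73% positive, and genes under 10 kb 4.53% and 22.2%. The count of 15 positive genes fell to 6 without ETM whole brain library 2. It was 7 or 8 without CT hypothalamus library 1, CT whole brain library 2, or ETM whole brain libraries 1 or 3. It was 7 when ETM hypothalamus library 1 was replaced by reads recovered from its FPKM column, and the 102 negative genes ranged from 70 to 102 across the omissions.

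ERC2 and SNTG1 had differences of -1.18 ± 0.12 (adjusted p = 0.00064) and -1.22 ± 0.14 (adjusted p = 0.00084). The most negative called gene with a symbol and at least 1 CPM was PLD5, a phospholipase D family member without known catalytic activity, at -1.68 ± 0.28 (adjusted p = 0.0026). It read 3.20, 3.54 and 3.65 CPM in CT hypothalamus and 2.52, 1.87 and 1.77 CPM in ETM, then 4.34, 4.27 and 5.04 CPM in CT whole brain and 8.97, 8.80 and 8.14 CPM in ETM. The groups separated in both tissues and in opposite directions.

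SPATA17 (-1.44 ± 0.44), DIAPH3, a formin that builds actin filaments (-1.34 ± 0.40), CCDC91 (-1.34 ± 0.31) and RORA (-1.32 ± 0.36) followed. DIAPH3 had a hypothalamus value of -1.07 ± 0.34 and a whole brain value of 0.23 ± 0.26, and neither passed alone. For DIAPH3 the difference did not pass without hypothalamus CT 1 or ETM 1 or whole brain CT 2, ETM 1 or ETM 3 (-1.30 to -1.17). For SPATA17 it did not pass without hypothalamus CT 1, ETM 1 or ETM 2 or whole brain CT 2, CT 3, ETM 1 or ETM 2 (-1.46 to -1.18), and for RORA without whole brain CT 2 or ETM 2 (-1.22). The edgeR adjusted p-values were then 0.0503 to 0.0871. With limma on log2(FPKM + 1) the difference was -0.28 for DIAPH3. Of the active zone genes 9 of 12 were negative, of the RNA-binding genes 3 of 5 and of the signalling enzymes 8 of 18, and none of these was positive. Adhesion genes gave 8 negative and 3 positive of 31.

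The positive differences were led by DNAH9 (1.23 ± 0.28, adjusted p = 0.009). It read 79.7, 102 and 125 CPM in CT hypothalamus and 106, 196 and 163 CPM in ETM, against 65.4, 54.1 and 57.5 and then 39.5, 39.8 and 34.9 CPM in whole brain. The hypothalamus groups overlapped and the whole brain groups did not. FBXL7 (0.84 ± 0.19), CHST2 (0.77 ± 0.17), SHANK3 (0.75 ± 0.17) and PTPRF (0.65 ± 0.17) came next. With limma on log2(FPKM + 1), SHANK3 and PTPRF did not pass, at 0.91 and 0.81 (adjusted p = 0.053 and 0.065). SHANK3 had a hypothalamus value of -0.01 ± 0.14, which did not pass, beside its whole brain value of -0.80.

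**Figure D4:**
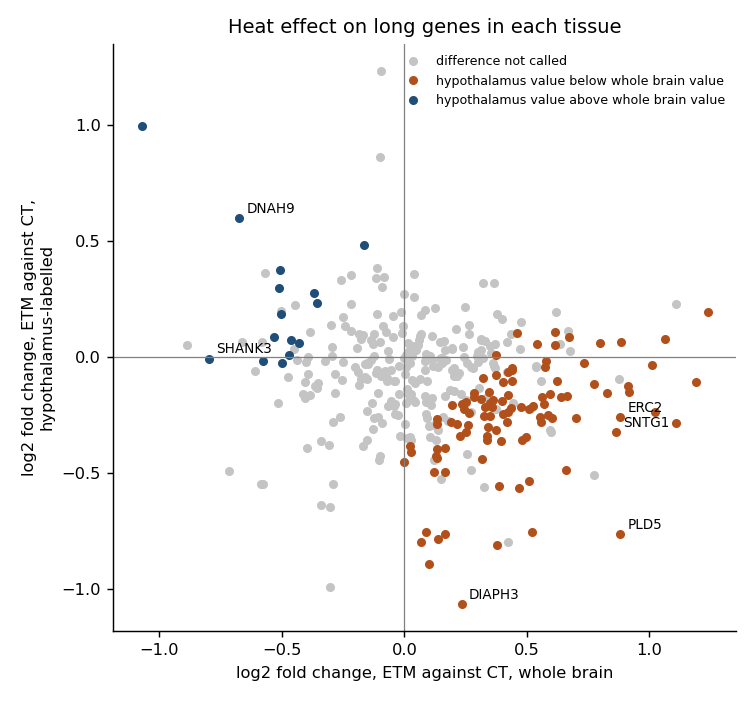
Log2 fold change of ETM against CT for the long genes tested in both tissues, whole brain on the horizontal and hypothalamus-labelled tissue on the vertical axis, coloured by the called difference between them. Most brown points, such as ERC2 and SNTG1, lie at lower right, and the few blue ones, such as DNAH9, at left.

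Of the 364 long genes tested in both tissues, 172 had a positive whole brain value and a negative hypothalamus value, and 54 had the reverse. The value was positive in both for 61 and negative in both for 77. Such pairs of signs were not counted over all genes. In whole brain 64.3% of long genes, 65.6% of protein-coding genes of 50 to 200 kb and 50.9% of all genes had positive values. In hypothalamus-labelled tissue these shares were 31.5%, 41.1% and 51.3%. XYLT1 was one of the genes with like values, -0.55 ± 0.16 and -0.58 ± 0.11. APP, the most abundant per length, passed in neither, with -0.06 ± 0.13 and -0.08 ± 0.07 and adjusted p-values of 0.91 and 0.37.

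In control embryos the tissues were compared as hypothalamus-labelled over whole brain. Of 367 long genes 63 were higher and 131 lower in hypothalamus-labelled libraries (edgeR, adjusted p below 0.05), with a background of 34.3% called, 16.7% higher and 17.6% lower. The median log2 difference was -0.18, beside 0.01 over all genes, and -0.05 with the span trend removed. Protein-coding genes of 50 to 200 kb were 16.3% higher and 24.3% lower, with a median of -0.06. The long genes left out by name gave 13 higher and 18 lower of 54, with a median of 0.0002. The count of 63 was 41 with limma on log2(FPKM + 0.1). The count of 63 higher genes fell to 40 without CT hypothalamus library 2 and to 41 without CT whole brain library 2. Myelin markers were higher in hypothalamus-labelled libraries for 10 of 10 tested, in controls and in heat-exposed embryos. Other markers also differed in controls. Of 12 pallial markers 11 were lower there and none higher (median -4.4), and of 8 choroid plexus markers 6 and none. Of 11 endothelial markers 9 were higher and none lower, and of 14 midbrain and hindbrain markers 11 and 2. Neuron markers were 4 higher and 5 lower of 14. The part of these markers in the long-gene differences was not tested.

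XKR4, a membrane scramblase of the XK family, was lower in hypothalamus-labelled tissue. It read 5.31, 6.48 and 5.24 CPM in CT hypothalamus and 41.9, 35.3 and 40.9 CPM in CT whole brain (log2 difference -2.79 ± 0.15). PDE1A (-2.63 ± 0.18), ARHGAP15 (-2.38 ± 0.32), RORA (-2.07 ± 0.25) and DOK6 (-1.96 ± 0.20) were lower too. PLCB1 was at 123 ± 8.51 and 378 ± 9.93 CPM.

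In the other direction PAPPA, a metalloproteinase that cleaves binding proteins of insulin-like growth factors, read 38.2, 38.9 and 44.9 CPM in CT hypothalamus and 5.77, 7.87 and 5.46 CPM in CT whole brain (2.67 ± 0.22). GADL1 (1.69 ± 0.16), ALK (1.07 ± 0.14) and AGBL4 (1.18 ± 0.23) were also higher. The markers split: ERC2 was lower in hypothalamus-labelled tissue (-0.59 ± 0.09) and SNTG1 higher (0.48 ± 0.10). Active zone genes were 8 lower and 1 higher of 12.

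In heat-exposed embryos, which share no library with the controls, 56 long genes were higher and 191 lower. There the background was 58.9% called, 29.3% higher and 29.6% lower, and the median was -0.44 beside 0.01. With the span trend removed, 115 were higher and 136 lower, and the median was -0.05. The lean was shared with protein-coding genes of 50 to 200 kb, at 18.3% higher and 45.4% lower with a median of -0.29. The long genes left out by name gave 10 higher and 27 lower of 54, with a median of -0.33. Of the long genes 37 were higher in both treatments and 120 lower in both. 5 were higher in controls and lower in heat-exposed embryos, and none went the other way. Joint calls were not counted over all genes, so these counts cannot be called particular to long genes.

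SNTG1 was one of the 5: its difference was 0.48 ± 0.10 in controls and -0.74 ± 0.10 in heat-exposed embryos. ERC2 reached -1.77 ± 0.09. In the 1 fit this tissue difference is the control one plus the difference in heat effect given above. The shift between treatments is therefore not a separate result. XKR4 stood at -4.02 ± 0.16, ARHGAP15 at -3.71 ± 0.34 and RORA at -3.39 ± 0.27. PAPPA was at 2.84 ± 0.23, and SPAG16 and DNAH9, both of motile cilia, reached 2.03. The active zone genes were then 11 lower and none higher of 12.

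**Figure D5:**
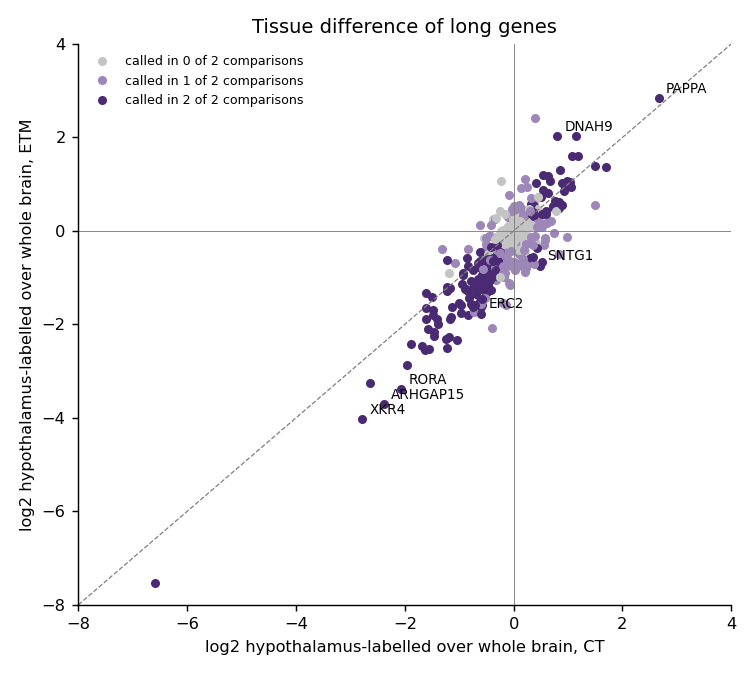
Log2 ratio of hypothalamus-labelled tissue over whole brain for each long gene, CT embryos on the horizontal and ETM embryos on the vertical axis, coloured by the number of comparisons in which it was called; the dashed line marks equal values. Most genes below 0 in both lie under the line; of the labelled genes, XKR4 lies farthest to the lower left and PAPPA to the upper right.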

How the data were processed

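RNA-seq was read in 12 libraries, 3 in each of 4 groups. Per the submitters' processing notes, reads were counted with featureCounts (Subread 2.0.6) on GRCg7b; the aligner is not given in the sources used here. The authors deposited raw counts per gene and FPKM values, which are normalised for length and depth. Rows without a symbol (634) held 0.461 to 0.572% of the counts, have their own identifiers and were kept.

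The members, lists and tests were chosen with earlier results of these data known. Counts were filtered with filterByExpr, scaled by TMM and tested with edgeR 4.0.16 (quasi-likelihood, R 4.3.3), with adjustment over all genes and a threshold of 0.05. Heat effects were fitted within each tissue. The difference between tissues in the heat effect, and the tissue comparisons, came from 1 fit of 12 libraries. Alternatives used DESeq2 1.42.0, limma 3.58.1 on log2(FPKM + 1) or log2(FPKM + 0.1), other filters, scalings and members, omission of each library, and a replicate block. The scripts were tested on simulated data.

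Named genes were the 10 called members with a symbol, at least 1 CPM and the largest change in each direction (5 for the difference in heat effect and for heat-exposed embryos), or, with fewer than 10 called, the 10 lowest p-values. Also named by the rule were, for every list, the 3 genes of lowest p at most, and ERC2, SNTG1, the 6 widest genes, the 8 highest per length and the dystrophin list. A few named genes are not reported here. Other list members and the transcription genes named in the text were chosen after their values were seen. In the hypothalamus-labelled library whose 2 files disagree, 12161593 reads were recovered from the FPKM column and replaced its counts in an alternative fit. Before rounding, 100% of the recovered gene values that were checked, those below a set number of reads, were whole within 0.01. For symbols, spans and overlaps, RefSeq genes of GRCg7b were matched by symbol. CPM and fold changes are relative to each library's total and do not measure RNA per cell.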

Additional observations from a re-analysis of the deposited data

Results flagged for a closer look

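A change under heat that differed between the tissues was tested directly, as the hypothalamus-labelled log2 change minus the whole brain one in 1 fit. Of the 367 long genes tested 117 were called, where 24.2% of all genes were. The 12 named long genes below passed. All but ERC2 and SNTG1 were named for the largest called differences in this same test, so their passing was fixed by the choice. The difference was positive for DNAH9 (1.23), FBXL7 (0.844), CHST2 (0.768), SHANK3 (0.752) and PTPRF (0.654). It was negative for PLD5 (-1.68), SPATA17 (-1.44), DIAPH3 (-1.34), CCDC91 (-1.34), RORA (-1.32), SNTG1 (-1.22) and ERC2 (-1.18). The positive genes passed as lower in whole brain and none of the 12 passed in hypothalamus-labelled tissue. DIAPH3 passed in neither tissue alone.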

How the results depend on the processing

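The spread between libraries, of which counting error is a part, and 3 libraries a group limit the smaller changes. Genes near 0 have no stable sign. Apart from DESeq2, the share of all genes called under a changed fit or cut-off is not given here. Numbers tested for members of 100 kb or 400 kb or more are not given either. The counts below show only how far each result moved. "The cause was not tested" holds for each shift below unless the construction gives it. For the span offset it does: the trend was fitted on these same data, so long-gene medians near 0 are largely built in. With an offset that removes the trend on gene span, whole brain heat called 71 higher and 68 lower (median -0.0305), the hypothalamus median was 0.00538, the difference in heat effect 40 higher and 45 lower (median -0.0218), the control tissue median -0.0537, and heat-exposed embryos 115 higher (median -0.0489). DESeq2 called 4 lower in hypothalamus heat. Requiring an absolute log2 change of 0.5 left 48 higher and 12 lower in whole brain heat and 41 higher in control tissues. Members of 100 kb or more, a wider set, gave 345 higher and 128 lower in whole brain heat, 46 and 285 in the difference, 205 and 343 in control tissues (median -0.104), and 199 and 548 in heat-exposed tissues (median -0.335). Members of 400 kb or more gave 24 and 4, 2 and 26, 9 and 21, and 7 and 38 (median -0.486). Limma on log2(FPKM + 1) gave 5 higher in the difference (median -0.193) and a median of -0.321 in heat-exposed tissues. Limma on log2(FPKM + 0.1) gave 4 higher and 63 lower in the difference and 41 higher in control tissues. Recovered reads gave 7 higher in the difference and a median of -0.485 in heat-exposed tissues. Of 2 member sets chosen after seeing the data, 200 kb or more in RefSeq gave 9 higher in the difference. Members without an overlapping row gave 19 lower in whole brain heat, 7 higher in the difference, and 34 higher and 126 lower in heat-exposed tissues.

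Same-numbered libraries did not deviate together (correlations 0.0446, -0.247 and -0.355 in hypothalamus, -0.0199, -0.0369 and -0.0181 in whole brain; between tissues 0.016, -0.0715 and -0.0333 in CT and -0.138, -0.271 and 0.13 in ETM). The replicate block gave 95 higher and 34 lower in whole brain heat, and 9 higher and 85 lower in the difference. Leaving out 1 library gave 87 to 107 higher and 30 to 37 lower in whole brain heat (median 0.0831 to 0.117). Hypothalamus heat had 0 in each omission (median -0.128 to -0.063). The difference had 6 to 19 higher and 70 to 102 lower (median -0.304 to -0.237), control tissues 40 to 64 and 119 to 128 (median -0.202 to -0.155), and heat-exposed tissues 48 to 56 and 176 to 191 (median -0.473 to -0.435).

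Over the named genes 3189 repeats kept direction and side of the threshold, 95 lost and 13 gained the call, and 27 reversed, all in results that had not passed. Most of these genes were named for large changes or low p-values in these same libraries. The repeats that only changed a cut-off re-read the main fit and could not reverse. These totals therefore do not measure how far the results would recur in other libraries. The span offset turned ANK2 (-0.122) and CNTNAP2 (-0.0498) in whole brain, and APP (0.0228), LSAMP (0.0266), OPCML (0.000458), RBFOX1 (0.0201) and UTRN (0.0486) in hypothalamus. The covariate for W-linked counts turned ANK2 (-0.00473). Limma with 1 or 0.1 added and recovered reads turned EDIL3 (-0.0572, -0.0579, -0.065) and SGCZ (-0.0144, -0.0338, -0.0195) in hypothalamus, and recovered reads turned OPCML (0.0462). Omissions ranged from -0.0158 to 0.0677 for ANK2 and -0.0263 to 1.25 for SNTG2 in whole brain. In hypothalamus they ranged from -0.0602 to 0.136 for EDIL3, -0.311 to 0.0265 for LSAMP, -0.36 to 0.0599 for OPCML, -0.00751 to 0.344 for SGCZ, -0.49 to 0.0558 for SNTG2 and -0.152 to 0.0407 for UTRN.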
